A study of Mus musculus with 6 samples.

Results

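Genes of glycolysis and of the hypoxia response were examined in a mouse myeloid progenitor clone after the inducer of its Evi1 transgene had been taken away. The set held 39 genes listed by name and chosen with earlier results of these data known. A gene was read where the array annotation gave a probe set exactly that 1 symbol. Of the 39 genes, 36 had such a probe set and 35 were tested, out of 18193 genes tested on the arrays. Gapdh had its symbol alone on 3 control probe sets of the manufacturer, which are described below without a test, and shared its other 3 probe sets with further symbols. Bnip3l had 3 probe sets, each shared with a second symbol, and no probe set was named Gpi1 or Eno1 in the annotation used here.

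The withdrawal group was clone C6 harvested 48 h after doxycycline was removed, and the doxycycline group was the same clone kept under 1 µg/ml of the drug, with n = 3 arrays each. All 6 arrays came from this 1 clone of haematopoietic progenitors on a Rosa26rtTA C57BL/6J background, in which the reverse tetracycline transactivator is expressed from the Rosa26 locus. Both groups carried the vector pRRL.TET.Evi1.IRES.EGFP, in which doxycycline turns on a codon-optimized murine Evi1 together with green fluorescent protein, and the series calls the clone dependent on Evi1. Both also grew in the same cytokines, with stem cell factor, Flt3 ligand and interleukin 11 at 50 ng/ml apiece and interleukin 3 at 20 ng/ml. An effect of the drug itself and one of the lost transgene cannot be told apart, since the groups differ in both. The labels do not say that replicates were separate cultures, so p-values speak of array-to-array spread, part or all of which may be technical.

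Glycolysis turns glucose into pyruvate in the cytosol, and lactate dehydrogenase and the pyruvate dehydrogenase complex then compete for that pyruvate. When oxygen is scarce, the alpha subunits of the hypoxia-inducible factors escape hydroxylation and VHL-dependent destruction, pair with ARNT and raise transcription of glucose transporters, most glycolytic enzymes, pyruvate dehydrogenase kinases and genes such as Bnip3 and Vegfa. Haematopoietic stem and progenitor cells are known for relying on this programme in the marrow.

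Values are deposited log2 expression, 1 per probe set and array, each gene being read from its brightest probe set. Array medians lay between 5.22 and 5.27, and 32 of the 35 genes had a mean above the median probe set, so most of them were measured far from the floor. The dim ones were Eno2, Pdk2 and Epas1, at the 12.9th, 19.6th and 42.8th percentile of all probe sets. On the second principal component, with 31.9% of the variance, withdrawal replicate 3 and doxycycline replicate 1 stood apart. They were also the arrays with the lowest value of their group for 20 and 17 of the 35 genes. The signal of the manufacturer's actin control at its 3′ end exceeded that at its 5′ end by 0.46 ± 0.02 after withdrawal and 0.52 ± 0.05 under doxycycline (SD, n = 3 each, log2), a measure of RNA quality. Progenitor markers, among them Ptprc, Kit and Mpo, were bright, with a list mean of 11.6 to 11.7 on the withdrawal arrays and 11.4 to 11.5 on the doxycycline arrays. Of the 10 markers Elane and Cebpa rose, by 0.74 each, and Cd34 fell (-0.51), where 1.2% of all genes rose and 1.57% fell. Groups were apart and higher for 7 of the 10 and apart and lower for 2, against 12.4% and 12.2% of all genes. Their median difference was 0.26.

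After withdrawal, 4 of the 35 genes fell and 1 rose at an adjusted p below 0.05. Those that fell were Ldhb, Pdk1, Slc16a1 and Pfkp, and the one that rose was Pfkfb4. Among all genes tested, 1.57% fell and 1.2% rose by the same criterion, against 11.4% and 2.86% of this set. The set was chosen with earlier results of these data known, so such shares give no separate evidence. Bright genes passed more often than dim ones, and among the 11143 genes above the median level 2.33% fell and 1.89% rose, against 12.5% and 3.12% of the 32 members above it. All 5 differences were modest on the brightest probe sets, between 1.26-fold and 1.47-fold, though dimmer probe sets of Ldhb fell by up to 2.68-fold. The remaining 30 genes lay between -0.28 and 0.32, of which 25 differed by less than 0.2 and 23 had a difference below 0. The median difference of the 35 genes was -0.06, against 0.01 over all genes. Groups did not overlap for 12 members that were lower and 4 that were higher after withdrawal (34.3% and 11.4% of the set), against a background of 12.2% and 12.4% of all genes. Above the median level the shares were 37.5% and 12.5% of members, against 17.7% and 15.9% of all genes there.

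**Figure D1:**
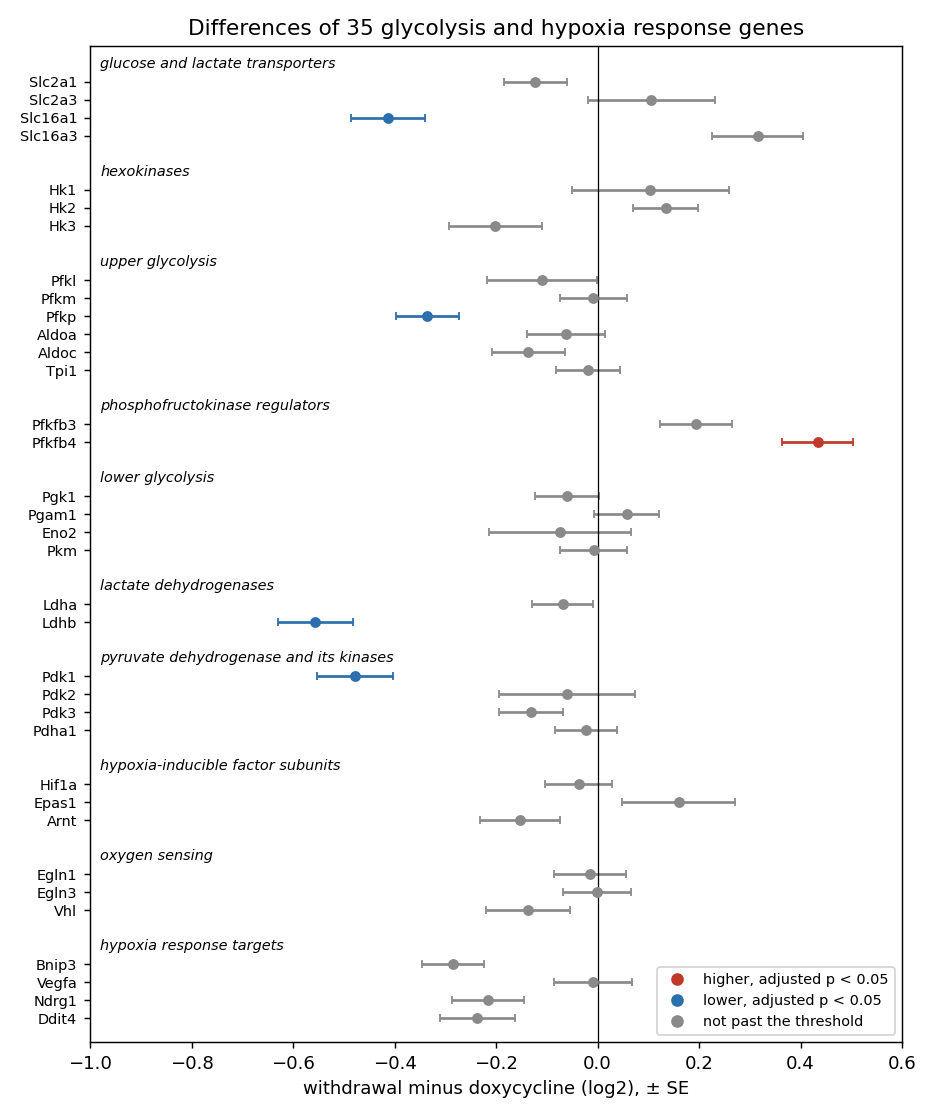
Difference of each of the 35 tested genes (points, withdrawal minus doxycycline on the log2 scale) with its limma standard error (bars, n = 3 arrays per group), grouped by role. Blue points (Ldhb, Pdk1, Slc16a1, Pfkp) fell and the red point (Pfkfb4) rose at an adjusted p below 0.05, while most enzymes of the central pathway lie close to 0.

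Of the lactate dehydrogenase genes, Ldhb fell and Ldha did not pass. Ldhb, which encodes the B subunit that is abundant in oxidative tissues such as heart, had 7.61, 7.67 and 7.73 on the withdrawal arrays and 8.29, 8.13 and 8.26 on the doxycycline arrays. Every withdrawal array was below every doxycycline array. The difference was -0.56 ± 0.07 (SE), a 1.47-fold lower level after withdrawal (limma adjusted p = 0.0130). Ldha, the A subunit gene and a classic hypoxia target, had 12.83, 12.85 and 12.83 after withdrawal and 12.88, 12.92 and 12.92 under doxycycline. These groups did not overlap either, but the difference was only -0.07 ± 0.06 and did not pass (limma adjusted p = 0.687), with a 95% interval of -0.21 to 0.07. The within-array difference of Ldhb and Ldha changed by -0.49 ± 0.07 (SE, n = 3 each) between the groups, which did not overlap, and by -0.89 with the mean of the probe sets of each gene.

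Ldhb was read by 4 probe sets, and every one of them fell. The brightest, used above, gave the smallest difference, and the others gave -0.86 ± 0.08, -1.01 ± 0.07 and -1.42 ± 0.13 with limma adjusted p of 0.00256, 0.000854 and 0.00303. The dimmest of them averaged 5.71 ± 0.28 after withdrawal and 7.13 ± 0.05 under doxycycline (SD, n = 3 each). The direction of Ldhb therefore did not depend on the probe set, whereas its size ran from 0.56 to 1.42 on the log2 scale (limma estimates below 0 for all). With the mean of its probe sets Ldhb differed by -0.96. The names of all 4 probe sets carry a suffix for probes that may be shared between transcripts, whether of the same gene or of others. On the brightest probe set the call was lost without withdrawal replicate 2 or doxycycline replicate 1 or 3, with limma adjusted p up to 0.0781.

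Pdk1, whose product phosphorylates and so inhibits pyruvate dehydrogenase, had 9.42, 9.28 and 9.22 after withdrawal and 9.82, 9.74 and 9.79 under doxycycline. All withdrawal values were below all doxycycline values. It fell by 0.48 on the log2 scale (-0.48 ± 0.07, limma adjusted p = 0.0251). Its next probe sets also fell, by -0.34 ± 0.07 and -0.46 ± 0.08 (limma adjusted p = 0.0485 and 0.0309), and the dimmest gave -0.21 ± 0.12 and did not pass. Only the fit without withdrawal replicate 1 kept the call of the brightest probe set, and the other leave-one-out fits gave a limma adjusted p of up to 0.117. Pdk3, another kinase of the family, had values of 10.25, 10.25 and 10.23 after withdrawal and 10.36, 10.34 and 10.43 under doxycycline, a difference of -0.13 ± 0.06 that did not pass. Pdk2 was dim in both groups, at 3.51 after withdrawal and 3.57 under doxycycline. Pdha1, the catalytic alpha subunit of pyruvate dehydrogenase that these kinases act on, differed by -0.02 ± 0.06 (95% interval -0.16 to 0.12).

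Slc16a1, the monocarboxylate transporter that moves lactate and pyruvate across the plasma membrane, had 10.81, 10.74 and 10.70 after withdrawal and 11.19, 11.07 and 11.23 under doxycycline. The groups were separate, and the gene fell (-0.41 ± 0.07, limma adjusted p = 0.0375). Slc16a3, the relative best known for lactate export and for induction by hypoxia, was much closer to the floor, with 5.69, 5.85 and 5.68 after withdrawal and 5.29, 5.54 and 5.45 under doxycycline. Its difference of 0.32 ± 0.09 had the opposite sign and did not pass (limma adjusted p = 0.159). The within-array difference of Slc16a1 and Slc16a3 changed by -0.73 ± 0.13 (SE, n = 3 each), the widest of the 6 isoenzyme pairs computed. Slc16a1 did not pass in any leave-one-out fit (limma adjusted p up to 0.160). Its second probe set, at 3.90 after withdrawal and 3.98 under doxycycline, was near the floor, and with the mean of the pair the difference was -0.25 and did not pass.

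Of the glucose transporters, Slc2a1, the basal carrier of blood cells, had 10.52, 10.54 and 10.47 after withdrawal and 10.60, 10.62 and 10.67 under doxycycline. The groups were apart by little, and the difference of -0.12 ± 0.06 did not pass (limma adjusted p = 0.446). Its next probe set gave -0.08 ± 0.10, and the one without a suffix for shared probes gave 0.10 ± 0.06, so even its sign is unsettled. Slc2a3, a high-affinity carrier, differed by 0.11 ± 0.13 with groups that overlapped, both withdrawal replicate 3 (11.73) and doxycycline replicate 1 (11.69) being low. Hk1, the ubiquitous hexokinase, showed the same arrays low, at 10.37 on withdrawal replicate 3 and 10.27 on doxycycline replicate 1, with 10.52 to 10.78 on the others, and differed by 0.10 ± 0.15. Hk2, the inducible hexokinase, differed by 0.13 ± 0.06 and Hk3, the form enriched in myeloid cells, by -0.20 ± 0.09, and neither passed.

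Phosphofructokinase commits sugar to glycolysis, and of its 3 subunit genes 1 passed. Pfkp, the platelet-type subunit, had 10.40, 10.40 and 10.45 after withdrawal and 10.73, 10.75 and 10.78 under doxycycline. It had narrow groups that lay well apart and fell (-0.34 ± 0.06, 1.26-fold lower, limma adjusted p = 0.0430). Its other probe sets differed by -0.32 ± 0.11 and -0.20 ± 0.10 without passing. The liver-type subunit Pfkl (-0.11 ± 0.11) and the muscle-type subunit Pfkm (-0.01 ± 0.07) did not pass, and their groups overlapped. The within-array difference of Pfkp and Pfkm changed by -0.33 ± 0.05, with groups apart, and that of Pfkp and Pfkl by -0.23 ± 0.14, with groups that overlapped (SE, n = 3 each). Pfkp did not pass in any leave-one-out fit (limma adjusted p up to 0.174), nor with centred arrays (-0.34) or with the mean of its probe sets (-0.29).

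The bifunctional enzymes of the Pfkfb family make and break the sugar bisphosphate that activates phosphofructokinase. Pfkfb4, also a hypoxia target, had 8.96, 9.00 and 8.86 after withdrawal and 8.45, 8.54 and 8.53 under doxycycline. Every withdrawal array was above every doxycycline array, and the gene rose by 0.43 ± 0.07 (1.35-fold higher, limma adjusted p = 0.0277). Pfkfb3, the form with the strongest kinase activity, had 8.95, 8.85 and 8.94 after withdrawal and 8.68, 8.68 and 8.80 under doxycycline. Its groups did not overlap and its difference of 0.19 ± 0.07 did not pass (limma adjusted p = 0.265). The change in the within-array difference of the pair was 0.24 ± 0.08 (SE, n = 3 each). Pfkfb4 had 1 probe set, and among the leave-one-out fits it passed in the one without withdrawal replicate 3 alone (limma adjusted p up to 0.128).

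Each of the 6 isoenzyme pairs set a gene that had passed against a relative that had not, and was chosen after values were seen. That choice favours groups that are apart, so the pairs add no separate evidence. For 5 of the 6 pairs the groups did not overlap. Each of these gave p = 0.1 in a two-sided exact permutation test, the smallest that 3 arrays against 3 allow. For Pfkp and Pfkl the exact permutation p was 0.2. After Benjamini-Hochberg adjustment over the 6 pairs these values became 0.12 and 0.2, so no pair could pass in this design.

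**Figure D2:**
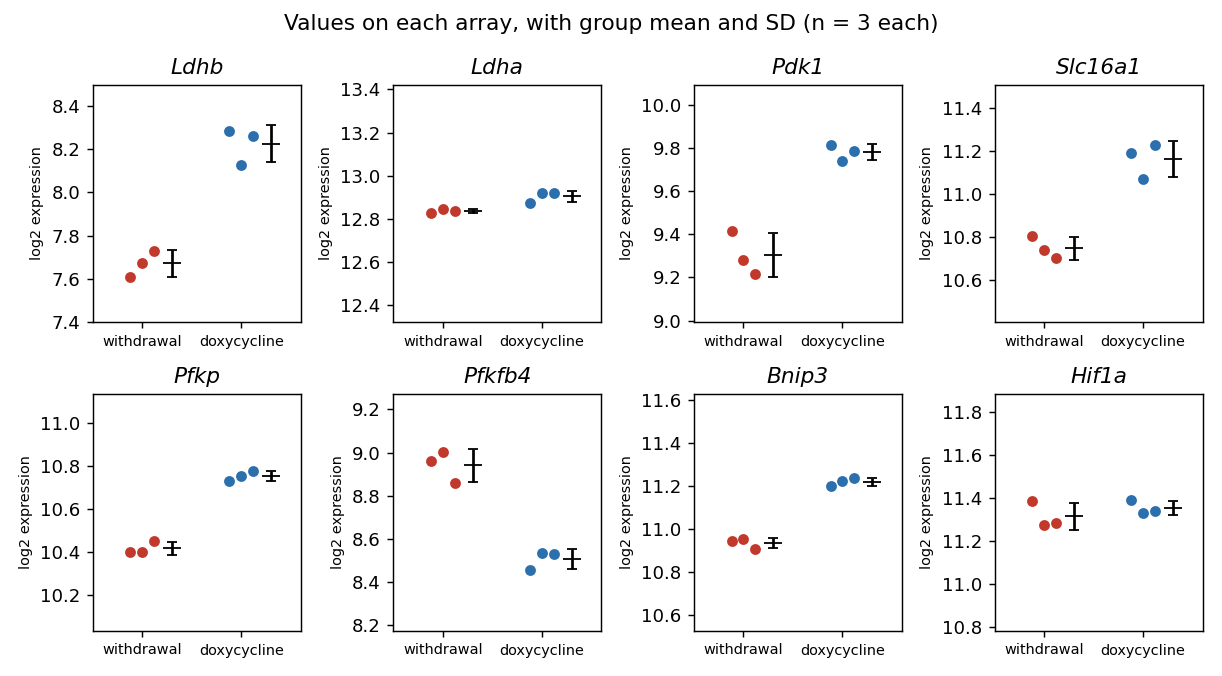
Log2 expression on each array for the 5 genes past the threshold and for Ldha, Bnip3 and Hif1a, with red points for withdrawal, blue points for doxycycline and group mean with SD at the right of the points (n = 3 each). All panels span the same number of log2 units; Ldhb, Pdk1, Slc16a1, Pfkp and Bnip3 are lower and Pfkfb4 higher on every withdrawal array, while Hif1a overlaps.

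**Figure D3:**
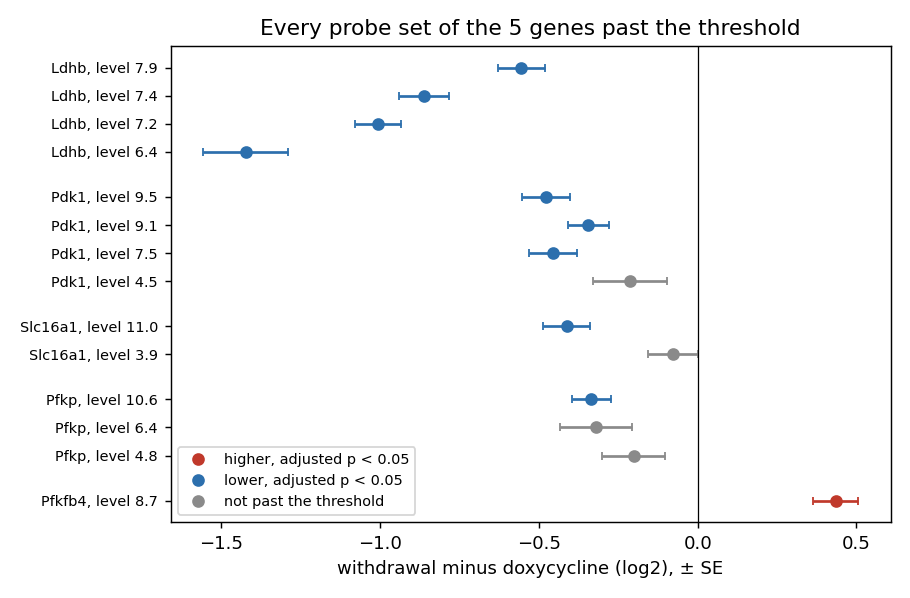
Difference (withdrawal minus doxycycline, log2) with its limma standard error for every probe set of the 5 genes past the threshold, each labelled with its mean level over the 6 arrays. Blue and red points passed an adjusted p of 0.05; all 4 probe sets of Ldhb and 3 of 4 of Pdk1 fell, and each probe set that did not pass was dimmer than its gene's brightest one.

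Of the aldolase genes, Tpi1, Pgk1, Pgam1, Eno2 and Pkm, 0 passed in limma and 0 had an unadjusted p below 0.05. Aldoa, the main aldolase of blood cells, had 13.33, 13.38 and 13.22 after withdrawal and 13.28, 13.43 and 13.41 under doxycycline, and all 5 of its probe sets differed by no more than 0.12 in size (the largest was -0.12 ± 0.08). Tpi1, triosephosphate isomerase, differed by -0.02 ± 0.06 (95% interval -0.17 to 0.13) and Pkm, pyruvate kinase, by -0.01 ± 0.07 (-0.16 to 0.15). Pgk1, phosphoglycerate kinase, differed by -0.06 ± 0.06 (-0.21 to 0.09) and Pgam1, phosphoglycerate mutase, by 0.06 ± 0.06 (-0.09 to 0.21). The intervals of Tpi1, Pkm, Pgk1 and Pgam1 hold no difference as large as that of Pfkp, the smallest of the called genes. Aldoc, the brain-type aldolase, differed by -0.14 ± 0.07 (95% interval -0.30 to 0.03), and Eno2, the neuronal enolase, was near the floor at 3.20 after withdrawal and 3.27 under doxycycline (95% interval of the difference -0.40 to 0.25). Each of the 3 Gapdh control probe sets was slightly higher after withdrawal, by 0.14, 0.18 and 0.17, with means between 13.7 and 14.0 after withdrawal and between 13.6 and 13.9 under doxycycline. As control probe sets they were not part of the test.

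Neither the hypoxia-inducible factor subunits nor the oxygen sensors passed. Hif1a, the inducible alpha subunit, had 11.39, 11.27 and 11.29 after withdrawal and 11.39, 11.33 and 11.34 under doxycycline, with overlapping groups and a difference of -0.04 ± 0.07 (limma adjusted p = 0.865, 95% interval -0.19 to 0.12). Its mRNA says little about its activity, since the protein is controlled by degradation. Epas1, the second alpha subunit, was dim at 4.84 ± 0.22 after withdrawal and 4.68 ± 0.05 under doxycycline (SD, n = 3 each). Arnt, the shared partner, differed by -0.15 ± 0.08. The prolyl hydroxylase genes Egln1 (-0.01 ± 0.07) and Egln3 (-0.0015 ± 0.07), of which Egln3 is itself a hypoxia target, had groups that overlapped. So did Vhl (-0.14 ± 0.08), the recognition subunit of the ubiquitin ligase. On the dimmer probe set of Egln1 the groups were apart and higher after withdrawal, by 0.18 ± 0.08, without passing (limma adjusted p = 0.404).

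Of Bnip3, Ddit4, Ndrg1 and Vegfa, hypoxia targets outside glucose metabolism, 0 passed in limma. In 3 of these 4 the groups were apart, and the same 3 had an unadjusted p below 0.05, all of them lower after withdrawal. Among all genes 12.2% had groups apart and lower, and 8.26% were lower at that unadjusted p. Bnip3, which promotes mitophagy, had 10.94, 10.95 and 10.91 after withdrawal and 11.20, 11.22 and 11.24 under doxycycline. The groups were tight and separate, and the difference of -0.28 ± 0.06 stood just outside the threshold (limma adjusted p = 0.0691). Bnip3 passed in 4 of its 15 alternative fits, where the adjusted p ran from 0.00105 to 0.251. Ddit4, an inhibitor of mTORC1 that hypoxia and stress induce, had 9.64, 9.64 and 9.50 after withdrawal and 9.84, 9.89 and 9.76 under doxycycline, a difference of -0.24 ± 0.07 (limma adjusted p = 0.195). Ndrg1 had 8.98, 9.06 and 8.88 after withdrawal and 9.15, 9.22 and 9.20 under doxycycline, a difference of -0.22 ± 0.07 (limma adjusted p = 0.221), and all 5 of its probe sets had estimates below 0. Vegfa, the vascular growth factor, differed by -0.01 ± 0.08 with overlapping groups.

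The promoter windows of the 5 genes that passed are shown because the hypoxia-inducible factors bind a short core, and a reader can see where its letters occur in genes that differed in opposite directions. Each window runs 5′ to 3′ from 250 bases before to 50 bases after the RefSeq start of the gene in GRCm38.p6. Capitals mark ACGTG or GCGTG on either strand, the forms of the core that were searched; a CACGTG holds ACGTG on both strands and counts as 2 matches. Of Pdk1, which has 2 annotated starts, the upstream window is shown.
Ldhb, chr6:142507908-142508207, minus strand: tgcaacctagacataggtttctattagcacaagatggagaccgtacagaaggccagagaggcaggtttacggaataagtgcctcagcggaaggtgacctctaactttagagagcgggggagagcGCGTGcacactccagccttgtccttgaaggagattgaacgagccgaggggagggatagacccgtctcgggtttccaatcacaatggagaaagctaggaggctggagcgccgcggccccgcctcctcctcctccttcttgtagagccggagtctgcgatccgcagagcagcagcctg
Pdk1, chr2:71872974-71873273, plus strand: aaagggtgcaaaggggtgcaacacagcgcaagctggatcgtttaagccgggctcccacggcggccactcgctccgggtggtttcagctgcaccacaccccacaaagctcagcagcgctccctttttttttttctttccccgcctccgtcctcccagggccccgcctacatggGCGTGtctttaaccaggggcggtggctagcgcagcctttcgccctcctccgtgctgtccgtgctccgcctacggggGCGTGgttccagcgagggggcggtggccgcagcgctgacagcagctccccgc
Slc16a1, chr3:104638414-104638713, plus strand: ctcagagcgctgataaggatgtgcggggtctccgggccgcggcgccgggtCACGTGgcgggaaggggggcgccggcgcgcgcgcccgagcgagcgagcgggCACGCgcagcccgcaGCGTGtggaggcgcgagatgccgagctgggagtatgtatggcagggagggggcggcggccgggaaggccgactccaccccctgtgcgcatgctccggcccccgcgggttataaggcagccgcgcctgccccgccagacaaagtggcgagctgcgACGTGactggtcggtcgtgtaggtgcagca
Pfkp, chr13:6648722-6649021, minus strand: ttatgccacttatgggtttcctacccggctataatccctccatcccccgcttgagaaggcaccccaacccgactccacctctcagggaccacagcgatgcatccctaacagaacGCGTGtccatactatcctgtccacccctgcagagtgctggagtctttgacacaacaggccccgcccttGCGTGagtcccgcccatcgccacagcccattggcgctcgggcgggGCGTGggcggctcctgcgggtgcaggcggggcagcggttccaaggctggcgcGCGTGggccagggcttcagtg
Pfkfb4, chr9:108991652-108991951, plus strand: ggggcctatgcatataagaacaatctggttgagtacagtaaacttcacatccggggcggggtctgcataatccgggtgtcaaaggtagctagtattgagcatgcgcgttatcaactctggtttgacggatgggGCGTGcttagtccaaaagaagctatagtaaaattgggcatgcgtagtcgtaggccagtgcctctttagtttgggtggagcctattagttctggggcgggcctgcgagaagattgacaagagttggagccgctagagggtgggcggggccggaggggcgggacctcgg

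Windows were found for 35 of the 39 genes by symbol, 50 windows in all, some of them overlapping because a gene has several starts. ACGTG or GCGTG occurred in 39 of these 50 windows (78%), against 43.8% of all 32851 windows. The member windows were also richer in G and C, with a median of 62% against 52.7% in all windows, and the part of base composition in that share was not tested. Slc16a1 held 5 matches and Pfkp 4, while Ldhb and Pfkfb4 held 1 each and the windows of Pdk1 held 2 and 0. Ldha, which did not pass, held 7 in its upstream window and Bnip3 held 5. CACGTG, the letters that MYC and its relatives also bind, occurred in 14% of member windows and 7.15% of all windows. The letters AGATAA, 1 of the forms that GATA factors bind, occurred on either strand in 8% and 11.2%. They were in none of the windows of the 5 genes that passed. Other forms were not counted, and TGATAA or its reverse complement stands in the windows of Slc16a1 and Pfkfb4 shown above. Such matches describe the letters in these windows and show no binding.

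Genes beyond the set were taken from further lists of wider glucose metabolism and of the wider hypoxia response, of which 48 and 51 genes were tested. These lists were also chosen with earlier results of these data known. Gbe1 and Pgm1 are on both lists and are counted in each. Of the 48 genes of glucose metabolism, among them the pentose phosphate pathway and glycogen enzymes, 0 passed in limma. At an unadjusted p below 0.05, 8 of them were higher and 1 lower after withdrawal (16.7% and 2.08%), against 8% and 8.26% of all genes. Their median difference was 0.06, and groups did not overlap for 15 that were higher and 3 that were lower (31.2% and 6.25%), against 12.4% and 12.2% of all genes. The largest differences among bright members were those of Gys1, glycogen synthase (0.49 ± 0.14), Tigar, a phosphatase that diverts sugar from glycolysis (0.36 ± 0.07, limma adjusted p = 0.0514), Rpe, an enzyme of the pentose phosphate pathway (0.34 ± 0.07), and Mpc1, a subunit of the mitochondrial pyruvate carrier (0.23 ± 0.07).

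Of the 51 genes of the wider hypoxia response, 2 rose and 2 fell, 3.92% each way, against 1.2% and 1.57% of all genes. The median difference of the list was 0.01. At an unadjusted limma p below 0.05, 9 were higher and 8 lower (17.6% and 15.7%), against 8% and 8.26% of all genes. Groups did not overlap for 12 that were higher and 11 that were lower (23.5% and 21.6%), against 12.4% and 12.2% of all genes. The chemokine receptor gene Cxcr4 (0.49 ± 0.08) and the phosphatase gene Dusp1 (0.41 ± 0.07) rose, with limma adjusted p of 0.0249 and 0.0272. The mRNA decay factor gene Zfp36l1 (-0.51 ± 0.08) and Tpd52 (-0.33 ± 0.06) fell, with limma adjusted p of 0.0207 and 0.0438. None of these 4 is controlled by hypoxia alone. Selenbp1 (-0.59 ± 0.12), Ankrd37 (-0.41 ± 0.10), Tfrc, the transferrin receptor (0.30 ± 0.06), and Narf (0.27 ± 0.07) did not pass. Without withdrawal replicate 2 or any 1 of the doxycycline arrays 0 of the 51 genes passed in limma, with 4 to 8 higher and 5 or 6 lower at an unadjusted p below 0.05. In these fits 5.95% to 7% of all genes were higher and 6.2% to 6.94% lower at that p. Without withdrawal replicate 1 the counts were 0 up and 1 down, and without replicate 3 they were 2 up and 1 down.

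**Figure D4:**
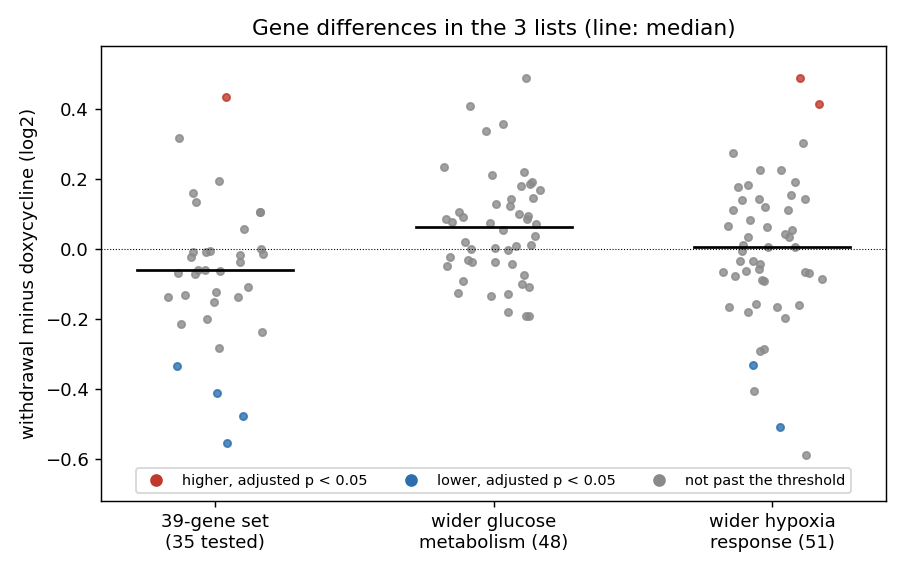
Differences (withdrawal minus doxycycline, log2) of the 35 genes of glycolysis and the hypoxia response, of 48 genes of wider glucose metabolism and of 51 genes of the wider hypoxia response, 1 point per gene with a line at each median. Medians are -0.06, 0.06 and 0.01, and the called genes (blue lower, red higher) lie on both sides of 0.

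Markers of blood lineages moved in the same arrays, and in a bulk sample fewer cells of a type and less RNA per cell cannot be told apart. Of 10 red cell markers 4 fell (list mean 5.33 to 5.39 after withdrawal and 5.84 to 5.90 under doxycycline), and of 8 megakaryocyte markers 4 fell (6.94 to 7.07 after withdrawal and 7.69 to 7.87 under doxycycline). Of 7 eosinophil markers 6 rose (8.69 to 8.80 after withdrawal and 8.07 to 8.15 under doxycycline), and of 8 mast cell and basophil markers 3 rose (10.2 after withdrawal and 9.72 to 9.76 under doxycycline). Of 8 monocyte and macrophage markers 4 fell (10.2 to 10.3 after withdrawal and 10.5 under doxycycline). Among all genes 1.57% fell and 1.2% rose. Some markers of these lists had groups apart in the other direction without passing. The red cell markers Alas2 and Slc4a1, both dim, and the monocyte marker Cd14 were higher after withdrawal, and the mast cell marker Cma1 was lower. Of 9 cell division genes 0 passed in limma (11.1 to 11.2 after withdrawal and 11.0 to 11.1 under doxycycline). At an unadjusted limma p below 0.05, 1 of them was higher and 0 lower (11.1% and 0%), against 8% and 8.26% of all genes. Groups did not overlap for 4 that were higher and 0 that were lower (44.4% and 0%), against 12.4% and 12.2% of all genes. All of the cell division genes lay above the median level, where the shares of all genes were 15.9% and 17.7%. Lymphoid, stromal and endothelial lists had low means, of 4.65 to 5.58 after withdrawal and 4.70 to 5.53 under doxycycline, though Thy1, Pecam1 and Vwf were brighter. Of these lists Cd79b fell, from 5.13 under doxycycline to 4.56 after withdrawal. Thy1 fell too, from 11.1 under doxycycline to 10.4 after withdrawal. The part of shifts between lineages in the differences of Ldhb, Pdk1, Slc16a1, Pfkp and Pfkfb4 was not tested.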

How the data were processed

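Per the labels' protocols, cDNA was amplified from total RNA and biotin-labelled. The deposited table holds log2 values that the authors made with RMA, per the submitters' processing notes (version and filters: not given in the sources used here). RMA forces arrays onto a shared distribution and compresses differences near the floor. Of 45101 rows, 64 control probe sets were left out. The 45037 tested had 1 symbol (34945), several (932) or none (9160) in the platform annotation.

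Samples were grouped by title and compared with limma 3.58.1 in R 4.3.3 (lmFit, eBayes, no covariate) on all 6 arrays, with 4 residual and 3.54 prior degrees of freedom. Two-sided p-values were adjusted by Benjamini-Hochberg over all 45037 probe sets with a cut at 0.05, and only genes past that are said to have risen or fallen. Each ± is an SE from limma unless SD is named, and isoenzyme pairs have the SE of a difference of means. Members and lists were chosen with earlier results of these data known. Any member could be named, and of the wider lists every gene that passed and up to 4 of the largest others that reached a mean of 7 in either group. Markers by name and the isoenzyme pairs were chosen after values were seen.

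On simulated data with 200 of 45037 probe sets changed, drawn from those above the median level, 98% of 100 changed by 1 and 66% of 100 changed by 0.5 were recovered, and 8 of 172 calls were false. Alternatives were each array left out, a block for the replicate number, the removal of dim probe sets, other scalings, trend and robust options, array weights and other choices of probe set. Promoter windows came from RefSeq (GRCm38.p6). Matplotlib 3.10.9 under Python 3.11.15 drew the figures.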

Additional observations from a re-analysis of the deposited data

How the results depend on the processing

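Directions of the 5 called genes held in every alternative that gave a value, and no called value of the 35 genes changed sign; 12 genes without a call changed sign in 30 of 515 gene values. The number of calls was less stable. With 1 array left out, 0 to 1 members rose and 0 to 2 fell, 0 to 2 genes of the wider hypoxia list rose and 0 to 1 fell, and 57 to 152 of all genes rose and 94 to 182 fell. No member passed without withdrawal replicate 2 or doxycycline replicate 1 or 3, with 2 or 3 higher and 7 or 8 lower at an unadjusted limma p below 0.05 in those fits, against 5.95% to 6.51% and 6.28% to 6.94% of all genes. In a fit on the 4 arrays that did not stand apart, added after seeing the data, 0 members rose and 0 fell (2 and 6 at an unadjusted p below 0.05), 0 and 0 hypoxia list genes (6 and 5 unadjusted, against 7.07% and 7.04% of all genes), and 22 and 55 of all genes. With the replicate block the counts were 0 and 0 members (3 and 7 at an unadjusted p below 0.05), 0 and 0 hypoxia list genes (6 and 8 unadjusted, against 7.41% and 7.35% of all genes), and 63 and 107 of all genes. Deviations of same-numbered samples correlated at -0.30, 0.46 and -0.03, and not every sample correlated best with its own number. With 3 arrays per group such correlations cannot decide whether same-numbered samples were paired, and the labels do not say. Above the median level 2 genes of glucose metabolism rose, 4 hypoxia list genes rose and 4 fell, and 498 and 580 of all genes. Trend and robust options gave 5 rises in glucose metabolism, 4 rises and 5 falls on the hypoxia list, and 634 and 732 of all genes. Array weights gave 2 rises in glucose metabolism, 4 falls on the hypoxia list, and 417 and 489 of all genes. With repeated quantile normalization 1 gene of glucose metabolism rose. With arrays centred on their medians, or with probe sets without shared names, 1 hypoxia list gene fell. In these fits 7 or 8 genes of that list were higher and 7 lower at an unadjusted limma p below 0.05, against 7.49% or 7.88% and 7.76% or 7.7% of all genes. With probe sets averaged by gene 332 of all genes rose. In the fits on all 6 arrays other than the block, 1 member rose and 3 to 6 fell, of 28 to 35 members. At an unadjusted limma p below 0.05, 3 or 4 members were higher and 6 to 12 lower. Of all genes 7.49% to 12.3% were higher and 7.7% to 13.6% lower at that p in the same fits. The cause of these changes in the counts was not tested. Of 35 members, 7 had no probe set without a shared name, Ldhb among them, and no value there. The number of arrays limits the precision.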
